A study of Mus musculus with 8 samples.

Results

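The genes described here are 35 genes of blood and lymphatic endothelium, the cells that line vessels, measured in bulk mouse skin. They were listed by name as endothelial genes, with earlier results of these data known, and cover junction and surface proteins, growth factor receptors and their ligands, vasoactive signals, transcription factors and lymphatic markers. All 35 had a probe set on the array, out of 18193 genes with a probe set paired with a single gene symbol, and for a gene with several probe sets the one of highest average signal over all 8 arrays was used. Of the 35, 32 lay above the median signal of their array on at least 2 arrays and were tested, among 12420 such genes. Prox1, Mmrn1 and Clec14a did not pass that signal filter and have values but no test. The skin came from Balb/c mice in a model of atopic dermatitis, in which 1-chloro-2,4-dinitrobenzene (DNCB), a contact sensitizer, is painted on the back. DNCB+HY209 skin (n = 3 arrays) received DNCB for 15 days and, over the last 7 of them, a gel with 5% HY209, a compound known here by its code only. DNCB skin (n = 3) received DNCB for the same time with vehicle over the last 7 days, and sham skin (n = 2) is described by title and source name as having had neither agent. The protocol fields of the sham samples nonetheless carry the wording of the DNCB model, a doubt that touches every comparison against sham. Whether each array is a different mouse is not in the labels, and the spread behind the p-values is that among these samples, which may be technical.

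Endothelial cells hold a vessel closed through VE-cadherin and claudin junctions, and set its permeability and its display of adhesion molecules. They grow and sprout under VEGF acting on its receptors and are kept quiescent by angiopoietins acting on the receptor Tie2, while ETS and SOX family transcription factors maintain their identity. In inflamed skin the small vessels of the dermis are known to dilate, leak and pass leukocytes, and lymphatic vessels drain the fluid.

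Promoter windows are shown because ETS factors are known to bind a GGAA core in the control regions of many endothelial genes, and because many of the genes below were higher together. RefSeq windows on GRCm38.p6, running from 250 bases before to 50 after a transcript start, were found for 20 of the 35 genes and for 6 of the 13 that rose in DNCB skin. The pentamer GGAAG or its reverse complement CTTCC is in capitals in the lines that follow, which give 3 genes that rose (Emcn, Eng and Cldn5) and the VEGF receptor gene Kdr, which did not pass the test. Emcn is read on the plus strand at chr3:137340828-137341127, Eng on the plus strand at chr2:32646345-32646644, Cldn5 on the plus strand at chr16:18776597-18776896 and Kdr on the minus strand at chr5:75978406-75978705, each 5′ to 3′.
Emcn: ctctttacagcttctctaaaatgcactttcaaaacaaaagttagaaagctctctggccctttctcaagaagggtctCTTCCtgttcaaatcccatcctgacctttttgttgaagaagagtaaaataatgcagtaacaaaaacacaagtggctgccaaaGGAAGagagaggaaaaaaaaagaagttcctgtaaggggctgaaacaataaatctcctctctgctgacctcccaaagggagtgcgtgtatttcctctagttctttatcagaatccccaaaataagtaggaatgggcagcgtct
Eng: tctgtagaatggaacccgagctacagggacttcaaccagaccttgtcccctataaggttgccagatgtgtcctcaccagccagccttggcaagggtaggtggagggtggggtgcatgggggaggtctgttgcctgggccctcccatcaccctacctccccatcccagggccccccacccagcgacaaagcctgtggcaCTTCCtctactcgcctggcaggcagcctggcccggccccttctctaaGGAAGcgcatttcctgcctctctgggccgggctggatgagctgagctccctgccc
Cldn5: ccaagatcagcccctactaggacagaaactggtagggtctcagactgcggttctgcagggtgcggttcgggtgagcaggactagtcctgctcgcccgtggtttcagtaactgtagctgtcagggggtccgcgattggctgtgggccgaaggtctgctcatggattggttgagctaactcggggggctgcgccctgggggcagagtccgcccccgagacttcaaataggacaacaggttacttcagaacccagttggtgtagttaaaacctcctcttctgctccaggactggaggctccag
Kdr: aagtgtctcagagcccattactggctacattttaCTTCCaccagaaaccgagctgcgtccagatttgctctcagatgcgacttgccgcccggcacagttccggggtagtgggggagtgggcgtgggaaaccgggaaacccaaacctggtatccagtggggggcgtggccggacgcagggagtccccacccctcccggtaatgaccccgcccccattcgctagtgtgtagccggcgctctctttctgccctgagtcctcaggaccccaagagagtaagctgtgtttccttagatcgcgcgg
The Emcn window held 2 matches, the Eng window 2, the Cldn5 window 0 and the Kdr window 1. Over all windows of the listed genes the pentamer was found in 19 of 26 (73.1%), against 71.4% of the 32851 mouse promoter windows of the same length. Among windows of genes that rose it was found in 5 of 9 (55.6%), and among windows of the other genes in 14 of 17 (82.4%). The longer ETS site CCGGAAG or CTTCCGG, which contains the pentamer, was in 0 of 26 windows against 8.86% of all windows. The GATA motif AGATAA or TTATCT was in 3 of 26 (11.5%) against 11.2%, and the SOX motif ACAAAG or CTTTGT in 5 of 26 (19.2%) against 18.7%. Apart from the long ETS site, each share over all 26 windows of the listed genes lay within a few percent of the share of all promoters. The pentamer shares of the windows split by whether the gene rose (55.6% and 82.4%) lay further from 71.4%, on few windows. A match is a run of letters, not a measured binding site.

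Values are log2 signals, on which a difference of 1 is a doubling, and the median over all probe sets of an array lay between 4.07 and 4.22. Within a group, the correlation between 2 arrays over all probe sets was 0.965 to 0.986. The mean log2 signal over the 32 tested endothelial genes was 5.27, 5.60 and 5.69 on DNCB+HY209 arrays 1, 2 and 3, 6.24, 6.29 and 5.75 in DNCB in the same order, and 4.90 and 4.85 in sham. The lowest DNCB array, array 3, was close to the highest DNCB+HY209 array, and both sham arrays lay below all others. DNCB array 3 was the lowest of its group in 23 of the 32 genes, and DNCB+HY209 array 1 in 21. DNCB array 3 also had the highest ratio of 3′ to 5′ Gapdh signal, a measure of RNA integrity, at 7.35, while the other 7 arrays lay between 2.10 and 4.46. The bacterial spike-in controls had mean log2 signals of 10.89, 9.97 and 9.87 in DNCB+HY209, 10.71, 9.25 and 10.83 in DNCB and 10.99 and 11.62 in sham. Fits with these 2 measures as covariates are given beside the counts they change.

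**Figure D1:**
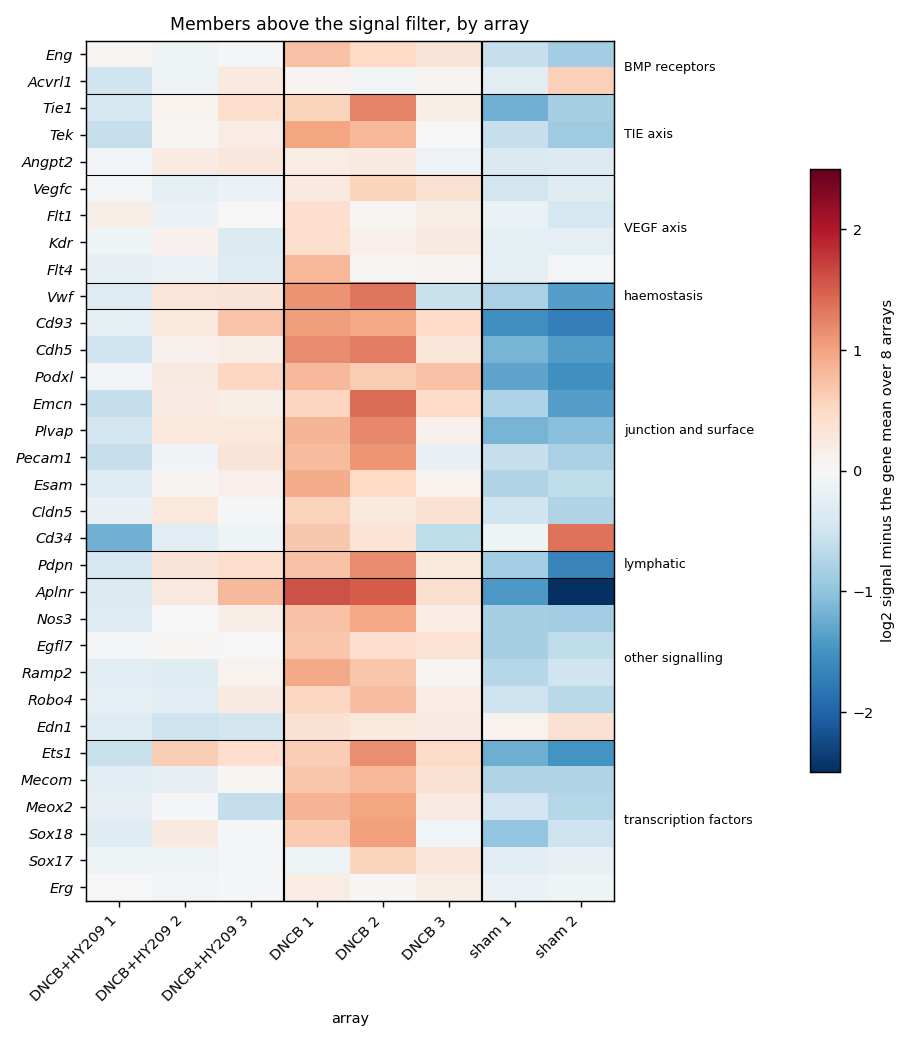
Log2 signal of each of the 32 tested endothelial genes (rows, grouped by role) on each of the 8 arrays (columns), shown as the difference from the gene's mean over the 8 arrays, with red above and blue below it. DNCB arrays 1 and 2 hold the highest value of the 8 in 14 and 15 genes, and sham arrays 1 and 2 hold the lowest in 10 and 17 genes; Cd34 and Acvrl1 are highest on sham array 2.

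The comparison of DNCB with sham skin asks what the dermatitis model did to vessel genes. In DNCB skin 13 of the 32 tested endothelial genes rose, 0 fell and 19 did not pass the test, while 1.37% of all tested genes were called higher and 0.459% lower (1.83% in either direction). The 13 were the apelin receptor gene Aplnr, the surface genes Cd93, Cdh5, Podxl, Emcn, Plvap and Cldn5, the BMP co-receptor gene Eng, the signalling genes Nos3 and Egfl7, the transcription factor genes Ets1 and Mecom, and Pdpn. In 29 of 32 genes every DNCB array lay above both sham arrays, which held for 23.3% of all tested genes. The log2 difference was above 0 in 30 of 32 genes, against 63.2% of all genes, and the 2 below 0 were Acvrl1 and Cd34. The median log2 difference was 1.25 over the 32 genes (1.22 over all 35) and 0.15 over all tested genes, with a range from -0.50 (Cd34) to 3.27 (Aplnr). In bulk skin a larger number of endothelial cells and more RNA per endothelial cell cannot be told apart. Calls rested on few arrays: leaving out sham array 1 turned the count of 13 into 2, and leaving out sham array 2 into 0. Among DNCB arrays, leaving out array 1 gave 1 call, array 2 gave 2 and array 3 gave 21. Among DNCB+HY209 arrays, leaving out array 1 gave 14, array 2 gave 3 and array 3 gave 8. With the spike-in signal as a covariate 1 endothelial gene was called, and with the Gapdh ratio as a covariate 22. With only the DNCB and sham arrays in the fit 7 were called, and 1 with a block on the replicate numbers. The median difference was between 1.14 and 1.47 over the 8 fits that leave out an array. Of the 32 genes, 8 lay above the array median on 0 sham arrays (Emcn, Mecom, Meox2, Tie1, Vwf, Sox17, Erg and Vegfc) and so passed the filter through the other groups, where they were higher. Their differences and p-values are tied to that filter, and the counts above include them, with Emcn and Mecom among the 13.

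Of the 9 tested junction and surface genes, 6 rose. Cdh5 (probe set 1433956_at), which encodes VE-cadherin, the adhesion protein of endothelial junctions, had log2 signals of 7.48, 7.57 and 6.60 on the DNCB arrays and 5.14 and 4.90 on the sham arrays. All DNCB arrays were above both sham arrays, with array 3 nearest to them, and Cdh5 rose by 2.20 (SE 0.34, adjusted p = 0.0230), a 4.59-fold difference. Podxl (1448688_at), a sialomucin of the luminal surface, had signals of 6.40, 6.22 and 6.33 in DNCB and 4.28 and 4.05 in sham. The DNCB arrays of Podxl lay within 0.18 of each other, and its increase of 2.15 (SE 0.22) had the lowest adjusted p of the endothelial genes, 0.00494. It kept its call in 7 of the 8 fits that leave out an array and in 18 of 19 alternatives in all, more than any other of the 13. Cd93 (1456046_at), a lectin-like surface receptor of endothelium and of myeloid cells, had 7.46, 7.37 and 6.89 in DNCB and 4.87 and 4.71 in sham. Its log2 difference was 2.45 (SE 0.31, adjusted p = 0.0128), and a second probe set above the filter gave 2.71 (adjusted p = 0.00269 over all 20644 probe sets above the filter, of which 1.12% were called). In that wider fit Plvap (adjusted p = 0.0514) and Cldn5 (adjusted p = 0.0628), both among the 13, did not pass. The probe sets used for the others of the 13 did.

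Emcn (1425582_a_at), a mucin of venous and capillary endothelium, had 4.71, 5.57 and 4.65 in DNCB and 3.41 and 2.82 in sham. It rose by 1.86 (SE 0.36, adjusted p = 0.0414), with both sham signals below their array medians, where a fold is approximate. Emcn passed the filter through the other groups, where it was higher, so its p is tied to that filter. Plvap (1418090_at), the diaphragm protein of fenestrated and permeable endothelium, had 8.54, 8.89 and 7.81 in DNCB and 6.52 and 6.64 in sham, and rose by 1.83 (SE 0.36, adjusted p = 0.0432). Cldn5 (1417839_at), the tight-junction claudin of endothelium, had 5.68, 5.36 and 5.49 in DNCB and 4.61 and 4.36 in sham. Its increase of 1.03 (SE 0.21, adjusted p = 0.0483) was the smallest of those called and was kept in 1 of the 8 fits that leave out an array. Among the 3 junction and surface genes that did not pass, Pecam1 (1421287_a_at), which encodes an adhesion protein shared with platelets and leukocytes, had 6.01, 6.31 and 5.03 in DNCB against 4.63 and 4.40 in sham. Its log2 difference was 1.27 (adjusted p = 0.164), and its 3 DNCB arrays spread over more than a log2 unit. Esam, a junction protein of endothelium and platelets, ran from 6.60 to 7.43 in DNCB and from 5.76 to 5.88 in sham, a difference of 1.19 (adjusted p = 0.0792). Cd34 (1416072_at), a sialomucin of endothelium that skin fibroblasts and hair follicle stem cells also carry, had 7.39, 7.05 and 6.08 in DNCB and 6.60 and 8.08 in sham. The groups overlapped and the highest of the 8 arrays was a sham array, with a log2 difference of -0.50 (95% interval -1.71 to 0.70, adjusted p = 0.616) that became 0.24 without sham array 2. Clec14a, a relative of Cd93, did not pass the filter, with mean log2 signals of 4.04 in DNCB and 3.64 in sham.

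**Figure D2:**
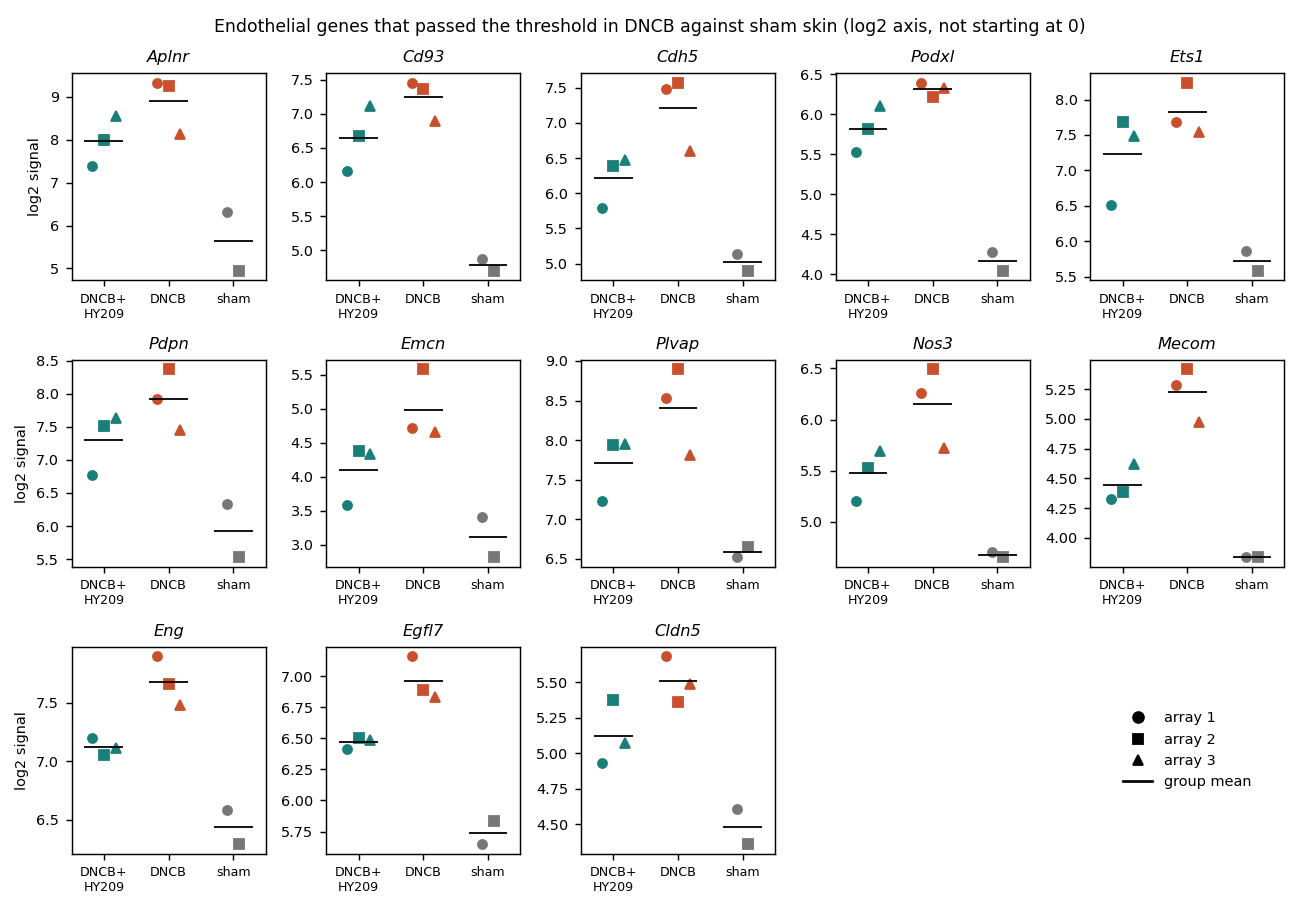
Log2 signal by array (points, with shapes for array numbers) and group mean (lines) for the 13 endothelial genes that rose in DNCB against sham skin, with DNCB+HY209 at the left, DNCB in the middle and sham at the right. All DNCB points lie above both sham points in each of the 13 panels, and each axis has its own range.

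The VEGF receptors and the ligand Vegfc did not pass the test, 0 of 4, with log2 differences of 0.43 to 0.77. Kdr (1449379_at), which encodes the main signalling receptor for VEGF, had 6.36, 6.05 and 6.13 in DNCB and 5.69 and 5.68 in sham. The groups did not overlap, but the difference was 0.49 (95% interval 0.02 to 0.97, adjusted p = 0.286), against the increase of 2.20 of Cdh5. Flt1, which encodes a high-affinity VEGF receptor that also acts as a decoy, ran from 6.53 to 6.92 in DNCB and was 6.34 and 6.07 in sham, a difference of 0.50 (adjusted p = 0.296). Its probe sets disagreed, since a second one, 1419300_at, rose by 1.31 (adjusted p = 0.0252 in the fit of all probe sets above the filter). Flt4 (1444052_at), the receptor for VEGF-C on lymphatic endothelium, had 6.15, 5.35 and 5.38 in DNCB and 5.11 and 5.29 in sham. DNCB array 1 stood above the other arrays, the difference was 0.43 (adjusted p = 0.410), and a second Flt4 probe set gave -0.43 with the opposite sign. Vegfc (1439766_x_at), the lymphatic growth factor itself, had 4.30, 4.60 and 4.42 in DNCB and 3.60 and 3.75 in sham, a difference of 0.77 that did not pass, above the array medians on the DNCB arrays only. Of the angiopoietin system, 0 of 3 genes passed: Tie1, an orphan receptor paired with Tie2, differed by 1.66 (adjusted p = 0.0563) and Tek, which encodes Tie2, by 1.34 (adjusted p = 0.100). Tek ran from 5.11 to 6.09 in DNCB and from 4.22 to 4.53 in sham, and Tie1 from 4.50 to 5.60 in DNCB and from 3.15 to 3.53 in sham. Angpt2 (1448831_at), the ligand that destabilizes vessels, had 5.10, 5.13 and 4.79 in DNCB and 4.56 on both sham arrays, a difference of 0.45 (adjusted p = 0.299).

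Of the BMP receptors, Eng rose and Acvrl1 did not pass. Eng (1417271_a_at), which encodes endoglin, a co-receptor for BMP and TGF-beta ligands, had 7.90, 7.66 and 7.48 in DNCB and 6.58 and 6.29 in sham, with no overlap. It rose by 1.24 (SE 0.22, adjusted p = 0.0344), and its other probe set differed by 1.17 (adjusted p = 0.0840 over all probe sets). Acvrl1 (1435825_at), the type I receptor that works with endoglin, had 4.15, 3.998 and 4.14 in DNCB and 3.79 and 4.68 in sham, so the DNCB arrays lay between the sham arrays. Its difference of -0.14 (95% interval -0.81 to 0.54, adjusted p = 0.814) turned to 0.31 without sham array 2.

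Among the 6 genes of other signals, 3 rose. Aplnr (1438651_a_at), the receptor for apelin on sprouting endothelium, had 9.33, 9.25 and 8.14 in DNCB and 6.31 and 4.95 in sham. It had the largest increase of the tested endothelial genes, 3.27 (SE 0.52, 95% interval 2.10 to 4.45, adjusted p = 0.0245), or 9.67-fold, and also the widest sham spread of the 13, with an SD of 0.96. A second Aplnr probe set differed by 1.46 and did not pass (adjusted p = 0.153 over all probe sets). Nos3 (1422622_at), endothelial nitric oxide synthase, which relaxes vessels, had 6.26, 6.49 and 5.72 in DNCB and 4.70 and 4.65 in sham, and rose by 1.48 (SE 0.26, adjusted p = 0.0337). Egfl7 (1435823_x_at), a secreted matrix protein of endothelium, had 7.16, 6.89 and 6.83 in DNCB and 5.65 and 5.84 in sham, and rose by 1.22 (SE 0.20, adjusted p = 0.0274). Its 4 probe sets differed by 0.64 to 1.47, all in the same direction. In the fit of all probe sets 1451427_a_at (adjusted p = 0.260) and 1421335_a_at (adjusted p = 0.227) did not pass. Ramp2, the co-receptor that makes the calcitonin receptor-like receptor respond to adrenomedullin, differed by 1.18 (adjusted p = 0.0900), and Robo4, a stabilizing receptor of vessels, by 1.09 (adjusted p = 0.0639). Ramp2 ran from 6.20 to 7.11 in DNCB and from 5.43 to 5.65 in sham, and Robo4 from 5.24 to 5.83 in DNCB and from 4.37 to 4.54 in sham. Edn1 (1451924_a_at), which encodes the vasoconstrictor endothelin-1 and is made by keratinocytes as well, had 5.50, 5.37 and 5.31 in DNCB and 5.21 and 5.50 in sham. These arrays overlapped and the difference was 0.04 (95% interval -0.37 to 0.46, adjusted p = 0.913), which became -0.087 after quantile normalization.

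Of the 6 transcription factor genes, Ets1 and Mecom rose. Ets1 (1426725_s_at), an ETS factor of endothelium and also of lymphocytes, had 7.68, 8.24 and 7.54 in DNCB and 5.86 and 5.59 in sham, an increase of 2.10 (SE 0.37, adjusted p = 0.0332). The 4 Ets1 probe sets differed by 0.29 to 2.41. In the fit of all probe sets 1452163_at (adjusted p = 0.0549) and 1422028_a_at (adjusted p = 0.314) did not pass, and 1422027_a_at was below the filter. Mecom (1438325_at), a zinc-finger factor of arterial endothelium and blood stem cells, had 5.28, 5.41 and 4.97 in DNCB and 3.84 on both sham arrays. Its increase of 1.39 (SE 0.20, adjusted p = 0.0187) came with the sham signals below their array medians. Mecom passed the filter through the other groups, where it was higher, so its p is tied to that filter. Meox2 (1424234_s_at), a homeobox factor of vessels and muscle, had 5.43, 5.58 and 4.80 in DNCB and 4.11 and 3.88 in sham, and its difference of 1.28 had an adjusted p of 0.0590. Sox18, a factor of blood and early lymphatic vessels, differed by 1.27 (adjusted p = 0.109), with a range of 5.22 to 6.32 in DNCB and 4.34 to 4.78 in sham. Sox17, its arterial relative, ran from 4.12 to 4.79 in DNCB and from 3.95 to 4.06 in sham, a difference of 0.48 (adjusted p = 0.313), while a second Sox17 probe set, 1429177_x_at, rose by 1.57 (adjusted p = 0.0187 over all probe sets). Erg (1425370_a_at), an ETS factor that maintains junctions, had 4.30, 4.14 and 4.29 in DNCB and 3.97 and 4.01 in sham. All 5 of these Erg signals lay close to the array medians, and the difference was 0.25 (adjusted p = 0.433).

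Vwf, the clotting and platelet-tethering protein stored in endothelium, had 5.18, 5.39 and 3.50 in DNCB and 3.24 and 2.67 in sham. DNCB array 3 lay near the sham arrays, and the difference of 1.73 (SE 0.52) did not pass (adjusted p = 0.155). On the lymphatic side, Pdpn (1419309_at), a mucin-like protein of lymphatic endothelium that keratinocytes and fibroblasts also make, had 7.92, 8.37 and 7.45 in DNCB and 6.33 and 5.53 in sham. It rose by 1.98 (SE 0.38, adjusted p = 0.0414). Prox1, the factor that defines lymphatic identity, had mean signals of 3.27 ± 0.39 (SD, n = 3) in DNCB and 3.38 ± 0.20 (n = 2) in sham, below the array medians. Mmrn1, a secreted protein of lymphatic vessels and platelets, was at 3.08 ± 0.17 in DNCB and 3.24 ± 0.24 in sham. Of 7 lymphatic markers 3 passed the filter (Pdpn, Flt4 and Reln), and Prox1, Lyve1 and Mmrn1 did not, and Ccl21a had no value there either, so the lymphatic genes of the list rest on Pdpn and Flt4. All 11 blood endothelial markers passed the filter. Every DNCB array lay above both sham arrays for 11 of these 11 and for 2 of the 3 lymphatic markers, against 23.3% of all tested genes. The 11 are among the endothelial genes counted above, so this is not a separate result. Emcn, Tie1 and Vwf lay above the array median on 0 sham arrays, which ties their separation to the filter. The nearest DNCB and sham arrays of Flt4 were 0.06 apart, and its second probe set had the opposite sign.

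**Figure D3:**
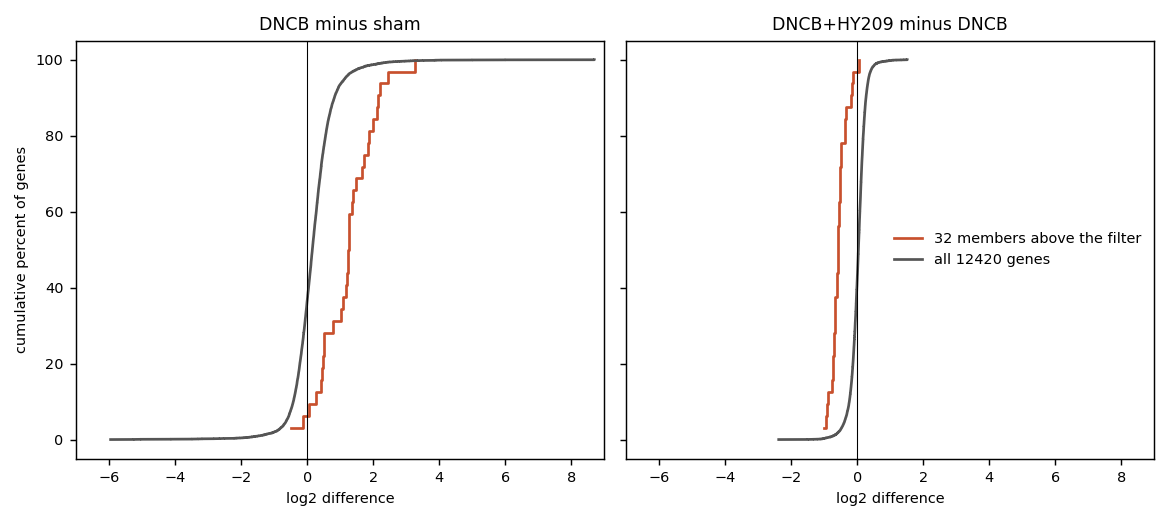
Cumulative percent of genes against log2 difference, for the 32 tested endothelial genes (orange) and all 12420 tested genes (grey), for DNCB minus sham (left) and DNCB+HY209 minus DNCB (right). The endothelial curve lies right of the grey curve at the left panel's centre (medians 1.25 and 0.15) and left of it in the right panel (medians -0.58 and 0.03).

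A further list of 62 vessel genes that are not among the 35 was read from the same fit, and 52 of them passed the filter. In DNCB against sham skin 9 of these rose, 1 fell and 42 did not pass, against 1.37% of all tested genes higher and 0.459% lower. The median log2 difference was 0.26, against 0.15 over all tested genes. Those that rose included Notch4, an endothelial Notch receptor (2.25, adjusted p = 0.0180), Mmrn2, a matrix ligand of Cd93 (2.19, adjusted p = 0.0180), Ecscr, a surface regulator of endothelial migration (2.44, adjusted p = 0.0409), and Slc2a1, a glucose transporter that keratinocytes also use (2.23, adjusted p = 0.0361). The others were Ptprb, the phosphatase that restrains Tie2 (1.79, adjusted p = 0.0372), Calcrl, the receptor that pairs with Ramp2 (1.22, adjusted p = 0.0331), Mcam, an adhesion protein of endothelium and pericytes (1.70, adjusted p = 0.0230), the ETS factor gene Fli1 (1.02, adjusted p = 0.0483) and Gimap4, a GTPase gene better known from lymphocytes (2.03, adjusted p = 0.0180). On both sham arrays Notch4, Ecscr, Calcrl and Fli1 lay below the array median, so they passed the filter through the other groups, where they were higher. Their p-values are tied to that filter, and the count of 9 includes them. Bmp4, a growth factor also made in hair follicles, fell by 2.13 (adjusted p = 0.0457), with log2 signals of 4.70, 4.54 and 5.44 in DNCB and 7.00 and 7.05 in sham. Efnb2 (-1.04) and Id3 (-0.83) were the next lowest and did not pass. Vegfa, the main ligand of Kdr, had 6.01, 6.78 and 5.96 in DNCB and 5.04 and 5.32 in sham, a difference of 1.07 that did not pass (adjusted p = 0.227). By group, 0 of 6 VEGF and neuropilin genes, 1 of 3 angiopoietin genes, 1 of 6 Notch genes, 1 of 7 BMP genes (which fell), 0 of 2 ephrin genes, 1 of 4 sphingosine, apelin and endothelin genes, 1 of 9 transcription factor genes and 5 of 15 surface and junction genes were called. Leaving out sham array 1, DNCB array 1 or DNCB array 2 in turn gave 0 calls in place of 10, leaving out sham array 2 gave 1, and leaving out DNCB+HY209 array 2 gave 3.

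Markers of other cells were read from the same arrays. Over all tested genes, 1.37% were called higher and 0.459% lower in DNCB against sham, and 23.3% had every DNCB array above both sham arrays. Of 10 pericyte and vascular smooth muscle markers, cells that wrap vessels, 9 passed the filter, and 2 rose in DNCB against sham: Rgs5 (3.10, adjusted p = 0.0234) and Pdgfrb (3.18, adjusted p = 0.0242). Their mean log2 signal ranged from 6.55 to 7.19 in DNCB and from 5.84 to 5.90 in sham, and 6 of the 9 had every DNCB array above both sham arrays. The smooth muscle gene Myh11 (-0.41, adjusted p = 0.394) and the pericyte gene Cspg4 (-0.46, adjusted p = 0.318) went the other way, with every DNCB array below both sham arrays, and did not pass. All 5 leukocyte markers passed the filter, and 3 rose (Ptprc, Cd52 and Coro1a). The mean signals over the 5 were 6.16 to 6.42 in DNCB and 4.45 to 4.93 in sham. Laptm5 went the other way, with overlapping arrays and a log2 difference of -0.51 (adjusted p = 0.505). Cd53 was higher without overlap but did not pass. Ptprc and Cd53 lay below the array median on both sham arrays, so they passed the filter through the other groups, where they were higher. The p-value of Ptprc is tied to that filter. The 8 macrophage markers, 0 of which passed the test and whose median log2 difference was 1.17, ranged from 5.69 to 7.07 in DNCB and from 5.30 to 5.58 in sham. Fibroblast markers (0 of 8 called) ranged from 8.28 to 9.34 in DNCB and from 8.35 to 8.85 in sham, and keratinocyte markers (0 of 7) from 11.24 to 12.09 in DNCB and from 10.998 to 11.06 in sham. The median log2 difference was 2.04 for leukocyte, 0.66 for pericyte and vascular smooth muscle, 0.23 for fibroblast and 0.18 for keratinocyte markers. Of 6 platelet markers 4 passed the filter and 0 were called, and of 6 erythrocyte markers 2 had a probe set and 0 passed the filter. Skeletal muscle (0 of 8 called), adipocyte (0 of 3) and hair follicle markers (1 of 8 called, Krtap3-1, which fell) had median differences of 0.46, -1.77 and -1.75. The part of cell makeup in the endothelial differences was not tested.

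**Figure D4:**
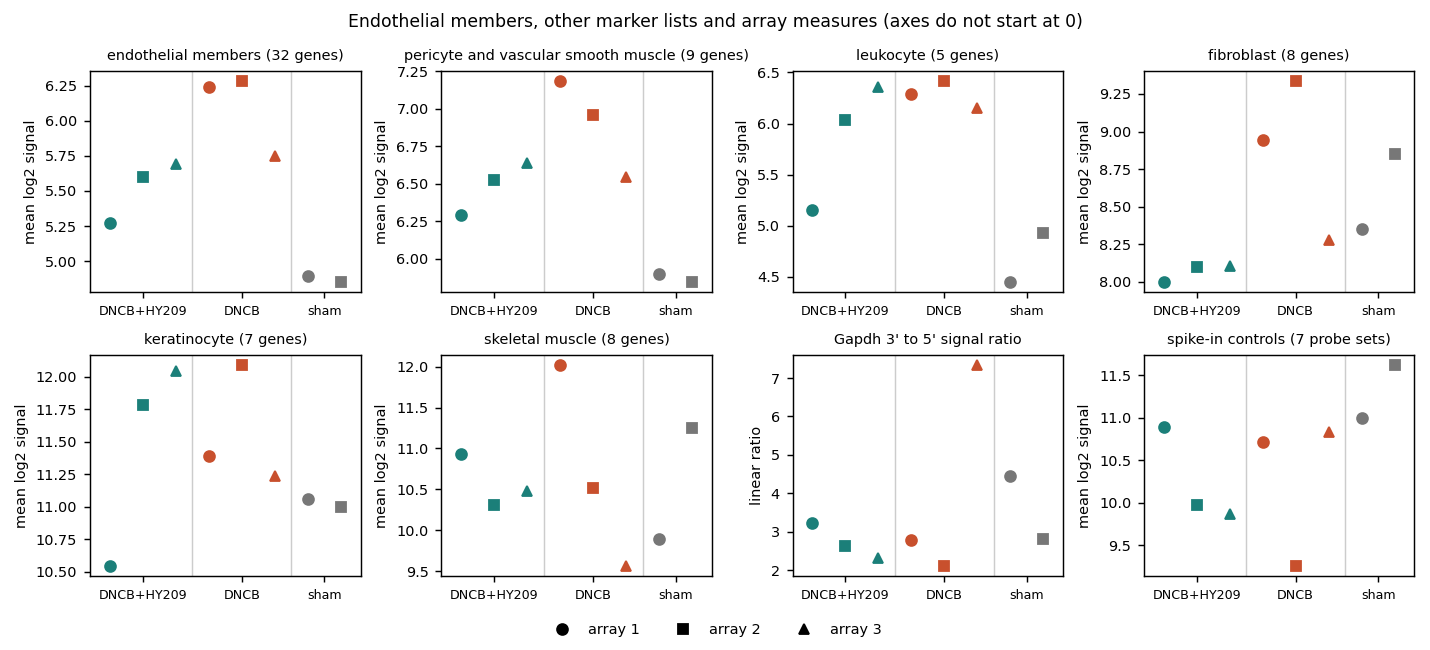
Mean log2 signal by array of the 32 tested endothelial genes and of 5 other marker lists, the Gapdh 3′ to 5′ ratio (linear) and the mean log2 signal of 7 spike-in probe sets, with DNCB+HY209 arrays at the left, DNCB in the middle and sham at the right of each panel. In the endothelial and the pericyte panel the sham arrays are lowest and DNCB arrays 1 and 2 are highest, and DNCB array 3 stands apart in the Gapdh panel at 7.35.

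The comparison of DNCB+HY209 with DNCB skin asks what the gel changed in skin that went on receiving DNCB. No endothelial gene passed the test, and neither did any other gene: 0 of 32 and 0 of 12420 (0%) were called with limma. At an unadjusted p under 0.05 there were 13 endothelial genes, all lower in DNCB+HY209, against 1.05% of all genes lower and 0.25% higher. In 13 of the 32 every DNCB+HY209 array lay below every DNCB array, which held for 2.17% of all tested genes. In 0 of 32 every DNCB+HY209 array lay above every DNCB array (2.83% of all genes). Both counts of 13 include Vegfc, which passed the filter on DNCB arrays only. The count without overlap also includes Erg, above the array median on 3 DNCB arrays and 1 DNCB+HY209 array, which needed the DNCB arrays to pass the filter. The log2 difference was below 0 in 31 of 32 genes, against 43% of all genes, with Angpt2 (0.04) as the exception. The median was -0.58 over the 32 genes and 0.03 over all genes. The DNCB arrays enter both this comparison and that with sham, so the values of the 2 comparisons are not independent. The 13 genes without overlap became 26 without DNCB array 3 (8.29% of all genes), 20 without DNCB+HY209 array 3 (5.69%) and 14 or 15 without any other array of these groups.

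Cdh5 had the lowest difference: its log2 signals were 5.80, 6.39 and 6.47 in DNCB+HY209, against 7.48, 7.57 and 6.60 in DNCB. The highest DNCB+HY209 array of Cdh5 was 0.13 below DNCB array 3, and the difference was -0.9996 (SE 0.30, 95% interval -1.68 to -0.32, adjusted p = 1.00), that is 0.500 of the DNCB level. Emcn had 3.59, 4.38 and 4.33 in DNCB+HY209 against 4.71, 5.57 and 4.65 in DNCB, a difference of -0.88 (95% interval -1.60 to -0.15, adjusted p = 1.00). Podxl had 5.53, 5.82 and 6.10 in DNCB+HY209 and 6.40, 6.22 and 6.33 in DNCB, a difference of -0.50 (-0.94 to -0.06). The other 6 junction and surface genes overlapped between the groups. Among them Plvap had 7.23, 7.94 and 7.95 in DNCB+HY209 and 8.54, 8.89 and 7.81 in DNCB (-0.70), Cd93 had 6.16, 6.67 and 7.12 in DNCB+HY209 and 7.46, 7.37 and 6.89 in DNCB (-0.59), and Cldn5 had 4.93, 5.37 and 5.07 in DNCB+HY209 and 5.68, 5.36 and 5.49 in DNCB (-0.38). In Plvap the overlap came from DNCB array 3, which lay below DNCB+HY209 arrays 2 and 3. In Cd93 DNCB array 3 lay below DNCB+HY209 array 3 only. In Cldn5 DNCB+HY209 array 2 lay just above DNCB array 2 only. Pecam1 (-0.68), Esam (-0.55) and Cd34 (-0.66) had intervals that included 0.

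The log2 differences of the 3 VEGF receptor genes ran from -0.53 to -0.20, and none passed. Kdr had 5.80, 6.02 and 5.57 in DNCB+HY209 and 6.36, 6.05 and 6.13 in DNCB, with no overlap but a gap of 0.03 between the nearest arrays, and a difference of -0.38 (95% interval -0.81 to 0.04). Flt4 had 5.12, 5.18 and 5.00 in DNCB+HY209 and 6.15, 5.35 and 5.38 in DNCB, a difference of -0.53 (-1.05 to 0.00), while Flt1 overlapped (-0.20). Vegfc had 4.01, 3.80 and 3.90 in DNCB+HY209 and 4.30, 4.60 and 4.42 in DNCB. Here the nearest arrays were 0.29 apart, with a difference of -0.54. Vegfc was above the array median only on the 3 DNCB arrays, so it entered the test through the group where it was high. For that reason no p or interval is printed for it here. Tek (-0.73) and Tie1 (-0.61) overlapped between the groups. Angpt2 had 4.84, 5.12 and 5.19 in DNCB+HY209 and 5.10, 5.13 and 4.79 in DNCB, a difference of 0.04 (-0.36 to 0.45) that turned to -0.064 without DNCB array 3. Its interval leaves room for a change of either sign, so no statement of equality follows.

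Among the signalling genes, Edn1 had 4.79, 4.60 and 4.65 in DNCB+HY209 and 5.50, 5.37 and 5.31 in DNCB. This was the widest gap between nearest arrays relative to the spread within groups among the 32 genes: the arrays were 0.53 apart, the SDs were 0.10 in DNCB+HY209 and 0.09 in DNCB, and the difference was -0.71 (SE 0.16, 95% interval -1.09 to -0.34, unadjusted p = 0.00189, adjusted p = 1.00). Eng had 7.20, 7.05 and 7.11 in DNCB+HY209 and 7.90, 7.66 and 7.48 in DNCB, a difference of -0.56 (-1.01 to -0.11). Nos3 had 5.20, 5.53 and 5.69 in DNCB+HY209 and 6.26, 6.49 and 5.72 in DNCB, with the nearest arrays 0.03 apart and a difference of -0.68 (-1.21 to -0.15). Egfl7, which had 6.42, 6.50 and 6.49 in DNCB+HY209 and 7.16, 6.89 and 6.83 in DNCB, differed by -0.49 (-0.90 to -0.09). Aplnr had 7.39, 7.99 and 8.56 in DNCB+HY209 and 9.33, 9.25 and 8.14 in DNCB; DNCB array 3 lay among the DNCB+HY209 arrays and the difference was -0.93 (-1.98 to 0.13). Ramp2 (-0.73), Robo4 (-0.58), Acvrl1 (-0.15) and Vwf (-0.54) overlapped.

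Mecom, the transcription factor gene with the lowest unadjusted p here (0.00184, adjusted p = 1.00), had 4.33, 4.38 and 4.62 in DNCB+HY209 and 5.28, 5.41 and 4.97 in DNCB, a difference of -0.78 (-1.18 to -0.37). Meox2 had 4.38, 4.55 and 3.998 in DNCB+HY209 and 5.43, 5.58 and 4.80 in DNCB, a difference of -0.96 (-1.52 to -0.40). In Erg the groups did not overlap either, with 4.10, 4.05 and 4.09 in DNCB+HY209 and 4.30, 4.14 and 4.29 in DNCB, but the difference of -0.16 was at signals near the array medians. Erg passed the filter through the DNCB arrays, where it was higher, so its separation is tied to that filter. Ets1 had 6.52, 7.69 and 7.49 in DNCB+HY209 and 7.68, 8.24 and 7.54 in DNCB (-0.59), and Pdpn had 6.77, 7.51 and 7.63 in DNCB+HY209 and 7.92, 8.37 and 7.45 in DNCB (-0.61). Both overlapped, as did Sox17 (-0.34) and Sox18 (-0.58). Of the 3 genes below the filter, Clec14a had a mean of 3.64 in DNCB+HY209 and 4.04 in DNCB, Prox1 3.09 and Mmrn1 3.07 in DNCB+HY209, against 3.27 and 3.08 in DNCB.

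**Figure D5:**
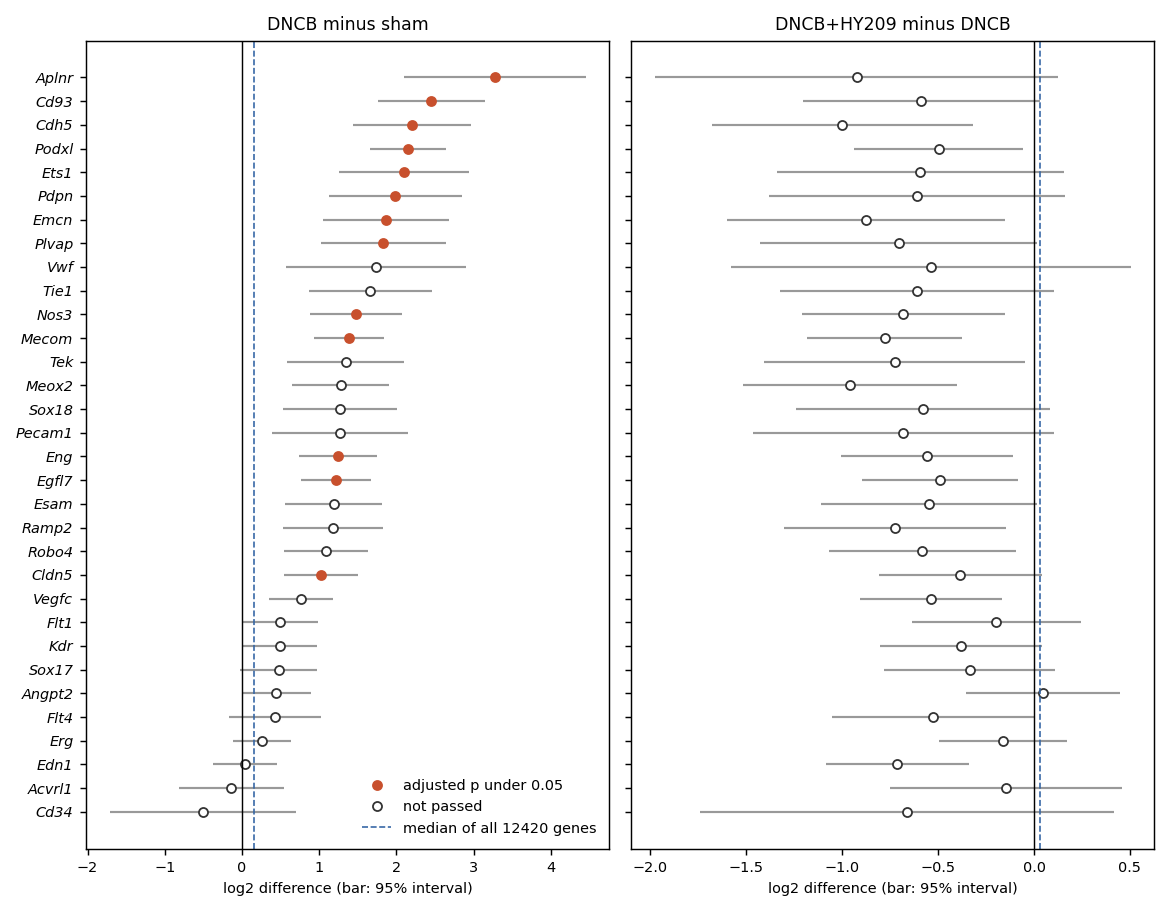
Log2 difference (points) with its 95% interval (bars) for each of the 32 tested endothelial genes, for DNCB minus sham (left) and DNCB+HY209 minus DNCB (right), ordered by the left panel, with the median of all 12420 tested genes as a dashed line. Filled points mark the 13 genes with an adjusted p under 0.05, all of them in the left panel, and 31 of the 32 points of the right panel lie below 0.

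In the further list of vessel genes 0 of 52 passed for DNCB+HY209 against DNCB, 8 had all DNCB+HY209 arrays below all DNCB arrays (2.17% of all tested genes), and the median difference was -0.25, against 0.03 over all tested genes. The lowest were Ptprb (-0.84), Ecscr (-0.82) and Mmrn2 (-0.75), and the highest were Bmp4 (0.65), Notch1 (0.52) and Vegfb (0.34). Vegfa differed by 0.07. Beside these values, the mean signal of the fibroblast markers was 7.998, 8.10 and 8.10 on the DNCB+HY209 arrays and 8.94, 9.34 and 8.28 on the DNCB arrays, with 4 of 8 genes (Col1a1, Col1a2, Col3a1 and Lum) lower without overlap. Pericyte and vascular smooth muscle markers averaged 6.29, 6.53 and 6.64 in DNCB+HY209 and 7.19, 6.96 and 6.55 in DNCB, with 3 of 9 (Rgs5, Acta2 and Tagln) lower without overlap. Leukocyte markers averaged 5.15, 6.04 and 6.35 in DNCB+HY209 and 6.29, 6.42 and 6.16 in DNCB, and 0 of 5 were without overlap. Macrophage markers averaged 5.81, 5.64 and 6.39 in DNCB+HY209 and 6.61, 7.07 and 5.69 in DNCB, with 1 of 8 lower without overlap and a median log2 difference of -0.54, beside -0.58 for the endothelial genes. Keratinocyte markers averaged 10.54, 11.78 and 12.05 in DNCB+HY209 and 11.39, 12.09 and 11.24 in DNCB. The median log2 difference was -0.99 for fibroblast, -0.52 for leukocyte, -0.18 for pericyte and vascular smooth muscle and -0.12 for keratinocyte markers. The part of these cells in the endothelial values was not tested.

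Set directly against sham skin, DNCB+HY209 skin had 2 endothelial genes that rose, Podxl and Cd93, and 30 that did not pass, while 0.266% of all tested genes were called higher (0.403% in either direction). Podxl was 5.53, 5.82 and 6.10 in DNCB+HY209 and 4.28 and 4.05 in sham, an increase of 1.65 (SE 0.22, adjusted p = 0.0225). Cd93 was 6.16, 6.67 and 7.12 in DNCB+HY209 and 4.87 and 4.71 in sham, an increase of 1.86 (SE 0.31, adjusted p = 0.0469). In the fit of all probe sets above the filter this Cd93 probe set had an adjusted p of 0.0566 and did not pass, while a second one had 0.0111. All DNCB+HY209 arrays were above both sham arrays in 25 of 32 genes (29.1% of all genes) and below both in 2 (12.2%), Cd34 and Edn1. Aplnr had the largest difference of the 32 genes (2.35, adjusted p = 0.100), and Ets1 differed by 1.51 (adjusted p = 0.122), and neither passed. Edn1 had 4.79, 4.60 and 4.65 in DNCB+HY209 and 5.21 and 5.50 in sham, a difference of -0.67 (95% interval -1.09 to -0.26, adjusted p = 0.144). Cd34 had 5.51, 6.43 and 6.58 in DNCB+HY209 and 6.60 and 8.08 in sham, with its highest DNCB+HY209 array 0.02 below the lower sham array and a difference of -1.17 (-2.37 to 0.04). Flt4 (-0.10) and Acvrl1 (-0.28) were the other values below 0, and Kdr stood at 0.11. The median over the 32 genes was 0.63, against 0.20 over all genes. Leaving out either sham array, DNCB array 1, or array 2 or 3 of DNCB+HY209 gave 0 calls in place of 2, leaving out DNCB array 2 or 3 gave 1, and leaving out DNCB+HY209 array 1 gave 4. With the spike-in covariate, with a replicate block, or with only the DNCB+HY209 and sham arrays in the fit, 0 were called. With the Gapdh covariate, the stricter filter or arrays centred on their medians 1 was called.

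Side by side, the values of the genes that rose in DNCB skin differed in how far the DNCB+HY209 arrays lay from sham. Podxl averaged 5.82 ± 0.29 in DNCB+HY209, 6.31 ± 0.09 in DNCB and 4.16 ± 0.16 in sham (SD, n = 3, 3 and 2). Mecom averaged 4.44 ± 0.15 in DNCB+HY209, 5.22 ± 0.23 in DNCB and 3.84 in sham, where both arrays had the same value to 2 decimals. Cdh5 averaged 6.22 ± 0.37 in DNCB+HY209, 7.22 ± 0.54 in DNCB and 5.02 ± 0.17 in sham. The DNCB arrays are shared by the differences on either side of them. Among the genes that did not rise, the DNCB+HY209 mean of Edn1 was 4.68 ± 0.10, against 5.39 ± 0.09 in DNCB and 5.35 ± 0.20 in sham, below both.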

How the data were processed

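Total RNA of skin was amplified from the 3′ end, labelled with biotin and hybridised to 1 Affymetrix array per sample, per the labels' protocols. The authors deposited log2 signals for 45101 probe sets, the scale being inferred from the size of the values. Affymetrix Expression Console and MAS5 are named, per the submitters' processing notes, and no source used here states how arrays were normalized. The labels name a smaller array of the same family than the probe annotation used here. Detection calls were not analysed here. The annotation paired 34945 probe sets with 1 symbol and 932 with several, left 9160 unnamed and marked 64 as controls. Values were used as deposited. A probe set was kept if above its array's median on at least 2 of 8 arrays (20644), with 1 probe set per gene, that of the highest mean (12420 genes).

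Groups were compared with limma 3.58.1 in R 4.3.3 (lmFit and trended eBayes) on all 8 arrays together. Tests were two-sided, p-values were adjusted by Benjamini-Hochberg over the tested genes, and the threshold was 0.05. SE is the moderated standard error, and intervals are 95% from the same fit. Second probe sets were read from a fit of all 20644. The fit was run on simulated data with known changes and independent noise for each gene. That run checked the code, not how stable the calls made here are. Values on every array are given for genes that passed in any comparison, for those without overlap between DNCB+HY209 and DNCB arrays, and for the 3 highest and 3 lowest of each comparison. Pecam1, Vwf and Vegfa were given likewise after their values were seen. Other vessel genes are those called, the 3 highest and the 3 lowest of a fixed list. The 35 genes and all lists were chosen with earlier results of these data known. The labels do not say that the replicate numbers mark paired arrays, so the main fit had no block. Deviations of same-numbered arrays from their group means had correlations of -0.60 to 0.28. With so few arrays per group these deviations are tied to each other, so the correlations cannot exclude pairing. Alternatives covered the normalization, the filter, the value per gene, the variance model, the arrays fitted, a replicate block and covariates for spike-in signal and Gapdh ratio. Precision is limited by the number of arrays. Promoters are from RefSeq. No window was used for Cdh5, Pecam1, Esam, Podxl, Plvap, Cd93, Angpt2, Acvrl1, Aplnr, Ramp2, Nos3, Vwf, Sox17, Sox18 and Ets1.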

Additional observations from a re-analysis of the deposited data

How the results depend on the processing

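For DNCB against sham, the 13 endothelial calls became 7 with only the groups compared, 1 with the replicate block, 1 with the spike-in covariate and 22 with the Gapdh covariate, and ranged from 0 to 21 with an array left out. The 227 calls over all genes became 35 with the replicate block, 16 with the spike-in covariate and 452 with the Gapdh covariate, and ranged from 15 to 352. The labels do not say whether the replicate numbers pair the arrays. The fits with a block or a covariate have fewer residual degrees of freedom, and the cause of these shifts was not tested. The median difference of the endothelial genes was 1.03 to 1.32 over the 11 other settings and 1.14 to 1.47 with an array left out, and 29 to 31 endothelial genes, against 25.7% to 46.5% of all genes, were without overlap when an array of these groups was left out. Quantile normalization moved the median of all genes to 1e-04, against 0.15 as deposited, and that of the endothelial genes to 1.15, with 14 calls.

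For DNCB+HY209 against DNCB, 0 genes were called under all 19 alternatives. The median was -0.73 to -0.57 over the other settings and -0.76 to -0.45 with an array left out, where endothelial genes without overlap numbered 14 to 26, against 3.33% to 8.29% of all genes. For DNCB+HY209 against sham, the 2 endothelial calls became 1 with arrays centred on their medians, 1 with the stricter filter, 1 with the Gapdh covariate, and 0 with only the groups compared, the replicate block or the spike-in covariate, and ranged from 0 to 4 with an array left out. The 50 calls over all genes became 97 after quantile normalization, 24 when probe sets of a gene were averaged, 16 with only the groups compared, 12 with the replicate block and 10 with the spike-in covariate, and ranged from 9 to 287. The median of 0.63 became 0.36 with the spike-in covariate and ranged from 0.54 to 0.75 with an array left out, with 25 to 27 endothelial genes without overlap, against 31.1% to 51.4% of all genes.

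Some small differences changed sign. In DNCB against sham, Edn1 was -0.087 after quantile normalization and Flt4 was -0.0013 with its probe sets averaged. With an array left out there, Edn1 ranged from -0.10 (sham array 1) to 0.18, with -0.0094 when DNCB array 1 was left out, Cd34 from -1.24 to 0.24 and Acvrl1 from -0.58 to 0.31, both positive only without sham array 2. In DNCB+HY209 against DNCB, Angpt2 was -0.034 with the Gapdh covariate and ranged from -0.064 (DNCB array 3 left out) to 0.15, with -0.0265 when DNCB+HY209 array 3 was left out, and Acvrl1 ranged from -0.33 to 0.043 (DNCB+HY209 array 1 left out). In DNCB+HY209 against sham, Kdr was -0.0845 after quantile normalization and ranged from -6e-04 (DNCB+HY209 array 2 left out) to 0.22, Flt4 was 0.11 with the spike-in covariate, and Acvrl1 ranged from -0.73 to 0.16 (sham array 2 left out). Of 1239 single-gene values under alternatives, 1095 kept their direction and their side of the threshold, 124 kept the direction and lost the call, 6 gained it and 14 turned. Most of the 1239 belong to genes not called in the main fit, which had no call to lose. All 124 losses fall on the few genes called there, so these counts do not measure how stable the calls were. Signals near the array medians, as for Erg, Vegfc, Acvrl1 and the sham values of 9 genes, limit what their differences can show.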
